A study of Homo sapiens with 27 samples.

Results

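Integrins are cell surface receptors made of 1 alpha and 1 beta chain, and the pair decides which extracellular matrix protein is bound. The 10 subunit genes described here, ITGAV, ITGA1, ITGA2, ITGA4, ITGA5, ITGA8, ITGB3, ITGB5, ITGB6 and ITGB8, code for chains of the receptors that bind fibronectin, vitronectin and collagen. Receptors with alpha 1 or alpha 2 can also bind laminin. They were found in the deposited gene tables by Ensembl identifier, and all 10 were present among 44852 genes. The data were bulk RNA-seq libraries of the H1 human embryonic stem cell line grown on 3 recombinant laminin coatings and sampled at days 2, 22 and 32 of a protocol toward photoreceptor progenitors, with 3 libraries in each of 9 groups.

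The coatings are called the LN523, LN323 and LN521 matrices here. The sample labels give LN323 as the second isoform beside LN523 or LN521, and LN323 alone, whereas the study's own methods combine LN523 and LN323 with LN521 and use LN521 alone, so each matrix is named by its leading isoform and the second isoform is uncertain. No coating was fibronectin, vitronectin or collagen. Day 2 libraries were labelled as undifferentiated H1 cells and the later ones as photoreceptor progenitors derived from them. The sample titles number each day 2 lower than the labels and the headers of the deposited values, whose days are used here. The 3 matrices shared 1 medium sequence: NutriStem stem cell medium to day 2, then a medium with CKI-7 and SB431542, an inhibitor of TGF-beta receptors, and later one with BDNF, CNTF, retinoic acid and DAPT. Medium therefore differed between day 2 and the later days, and medium and time cannot be told apart. All libraries came from 1 cell line, and nothing in the labels says that the 3 libraries of a group were separate cultures, so p-values measure only the spread between these libraries.

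Integrin alpha V pairs with beta 1, beta 3, beta 5, beta 6 or beta 8 and reads the short RGD motif in vitronectin, fibronectin and the latency peptide of TGF-beta. Beta 6 is typical of epithelia and beta 8 of neural tissue, and both are known for releasing TGF-beta from its latent complex. Alpha 5, alpha 8, alpha 4, alpha 1 and alpha 2 also pair with beta 1, which is no member here: alpha 5 is the classical fibronectin receptor chain, alpha 8 binds nephronectin, alpha 4 binds VCAM1 and fibronectin, and alpha 1 and alpha 2 bind collagens.

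The promoter windows of ITGB6, ITGB8 and ITGA8 are shown because these genes went from low levels at day 2 to higher levels at day 22 on all 3 matrices and their windows differ in make-up. Each window holds 250 bases before and 50 bases after a RefSeq transcript start on GRCh38.p14, read 5′ to 3′ on the gene's strand, with CpG dinucleotides in capitals. The ITGB6 window lies at chr2:160200223-160200522 on the minus strand, the ITGB8 window at chr7:20330650-20330949 on the plus strand and the ITGA8 window at chr10:15719873-15720172 on the minus strand.
ITGB6: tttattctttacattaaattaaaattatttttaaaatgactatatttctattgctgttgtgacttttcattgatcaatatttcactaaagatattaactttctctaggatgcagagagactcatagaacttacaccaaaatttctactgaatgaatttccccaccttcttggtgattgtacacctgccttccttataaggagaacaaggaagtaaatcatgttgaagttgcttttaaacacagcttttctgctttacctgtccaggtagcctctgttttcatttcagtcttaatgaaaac
ITGB8: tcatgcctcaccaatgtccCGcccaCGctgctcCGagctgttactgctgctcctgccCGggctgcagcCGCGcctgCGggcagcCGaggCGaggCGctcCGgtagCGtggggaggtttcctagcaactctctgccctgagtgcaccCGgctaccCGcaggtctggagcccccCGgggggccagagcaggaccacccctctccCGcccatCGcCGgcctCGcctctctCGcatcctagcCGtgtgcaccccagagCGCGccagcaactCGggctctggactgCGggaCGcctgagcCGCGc
ITGA8: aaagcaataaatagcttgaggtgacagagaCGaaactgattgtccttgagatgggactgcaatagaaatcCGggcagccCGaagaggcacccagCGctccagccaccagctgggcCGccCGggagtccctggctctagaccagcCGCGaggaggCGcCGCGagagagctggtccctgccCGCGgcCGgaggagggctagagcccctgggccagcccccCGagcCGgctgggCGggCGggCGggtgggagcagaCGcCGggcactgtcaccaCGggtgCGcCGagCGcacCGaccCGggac
The ITGB6 window held 0 CpG dinucleotides and was 31.7% G or C, whereas the ITGB8 window held 28 and the ITGA8 window 27. Over 34794 RefSeq windows of the same length the median was 14 CpG dinucleotides and 58.7% G or C, and 3.97% held none. The GC box GGGCGG, searched on both strands, occurred 4 times in ITGA8, 2 times in ITGB8 and 0 times in ITGB6, and 44.9% of all windows held it. A window was found for 9 of the 10 members. These are descriptions of letters and no measurement of binding was made.

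Labelled cell states were checked against fixed marker lists, summed as TPM (transcripts per 1000000, reads per length scaled to a common total). The 6 pluripotency markers summed to between 6365 and 7933 TPM at day 2, to between 32.1 and 423 TPM at day 22 and to between 9.73 and 65.6 TPM at day 32. The 6 eye field and neural retina markers summed to at most 5.62 TPM at day 2 and to between 679.7 and 2209.9 TPM later. The 6 photoreceptor progenitor markers summed to 67.2 to 189 TPM at day 2, 15.0 to 82.6 TPM at day 22 and 19.2 to 197 TPM at day 32. That sum therefore did not set the later libraries, labelled as photoreceptor progenitors, apart from day 2. Library totals ran from 25620624 to 47340990 gene counts. The 10 mesenchyme markers summed to between 62.6 and 230.2 TPM at day 2 and to between 166 and 1840 TPM later. The 14 surface ectoderm markers, some of which stem cells also express, already summed to between 915 and 1117 TPM at day 2 and spread from 356 to 2676 TPM later. The 8 endothelial and blood markers summed to between 41.5 and 55.9 TPM at day 2 and between 8.12 and 17.4 TPM later. For the 8 pigment epithelium markers the sum was 144 to 267 TPM at day 2 and 678 to 2478 TPM later. For the 5 neural crest markers measured it was 133 to 174 TPM at day 2 and 21.9 to 96.3 TPM later. In bulk RNA, fewer cells of a type and less RNA per cell cannot be told apart, and this holds for every level below.

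Between days 2 and 22 the leading transcript of the group passed from ITGB5 to ITGAV, and ITGB6 and ITGB8 rose from low levels. At day 2, ITGB5 was first on each matrix, followed by ITGAV, ITGA5 and ITGA2, and these 4 neighbours in the order did not overlap in TPM. ITGA1, ITGA4 and ITGB8 followed at group means between 1.74 and 4.07 TPM, and ITGB3, ITGB6 and ITGA8 had means of at most 0.312 TPM. At days 22 and 32, ITGAV was first on each matrix, then came ITGB5 and ITGA5. Only on LN521 at day 22 did the ITGAV and ITGB5 libraries overlap, while ITGB5 and ITGA5 overlapped on LN523 at day 22 and on all 3 matrices at day 32.

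**Figure D1:**
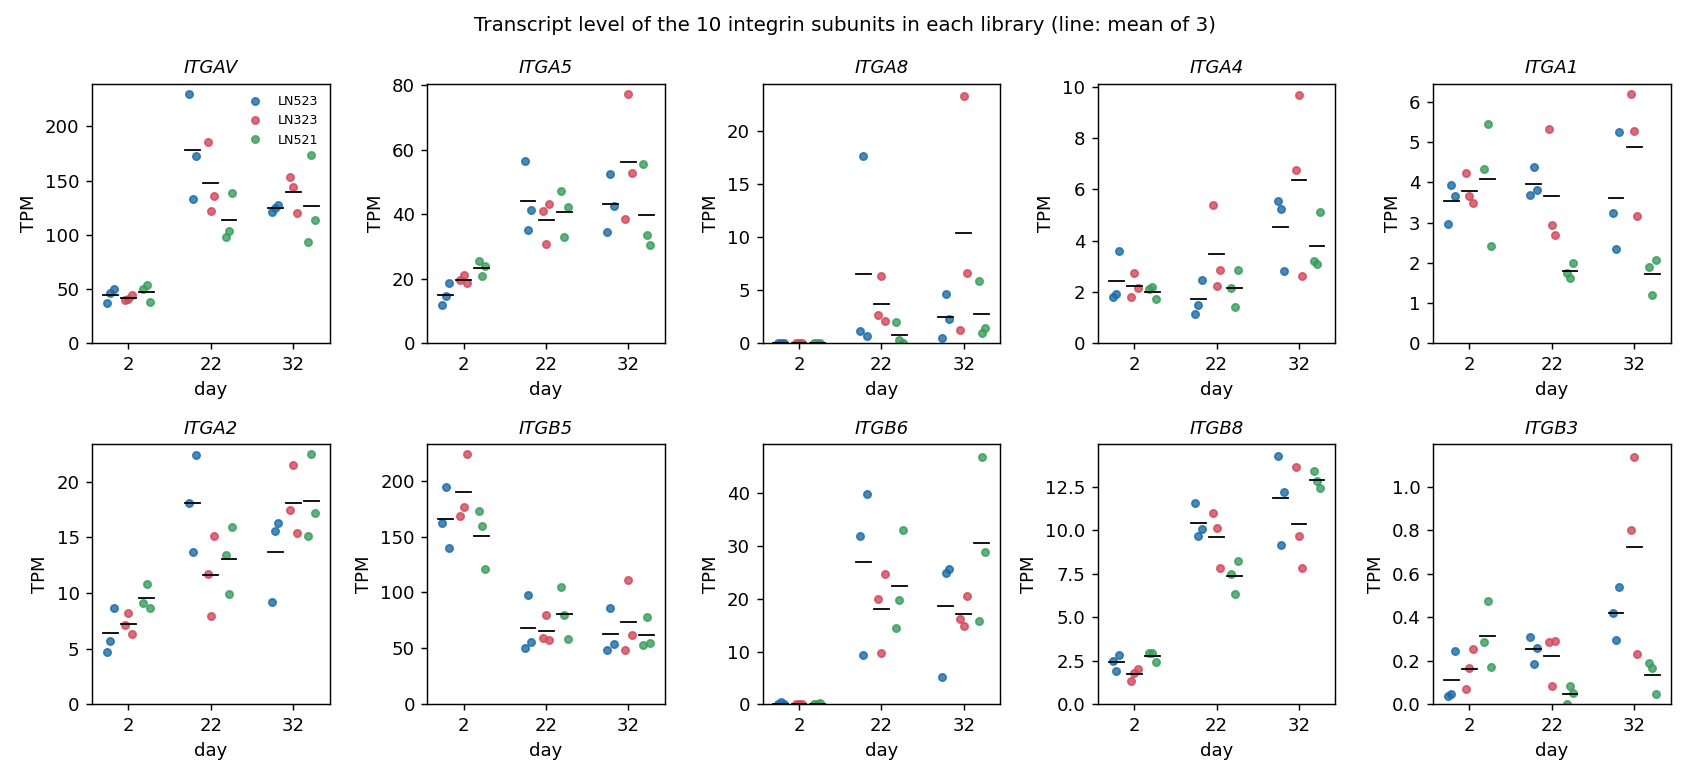
TPM of each of the 10 subunits (vertical axes, each from 0) against day, with 1 point per library, colored by matrix, and a line at the mean of 3. ITGAV, ITGA5, ITGB6 and ITGB8 sit higher at days 22 and 32 than at day 2 in all libraries, ITGB5 sits lower, and ITGB3 never exceeds 1.14 TPM.

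Changes over time were tested with edgeR's quasi-likelihood test on the counts of all 27 libraries, with sequencing lane as a term and Benjamini-Hochberg adjustment over all 44852 genes. Values are log2 fold changes with standard errors, called at an adjusted p under 0.05. From day 2 to day 22 on LN523, 6 members rose and 1 fell, where 11.5% of all genes rose and 10.2% fell. On LN323, 4 members rose and 1 fell against 11.8% and 10.9% of all genes. On LN521, 5 members rose and 2 fell against 10.8% and 8.09% of all genes. The median log2 change of the 10 members was 1.22 on LN523, 0.47 on LN323 and 0.60 on LN521, beside 0.02 over all genes on LN523 and LN323.

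**Figure D2:**
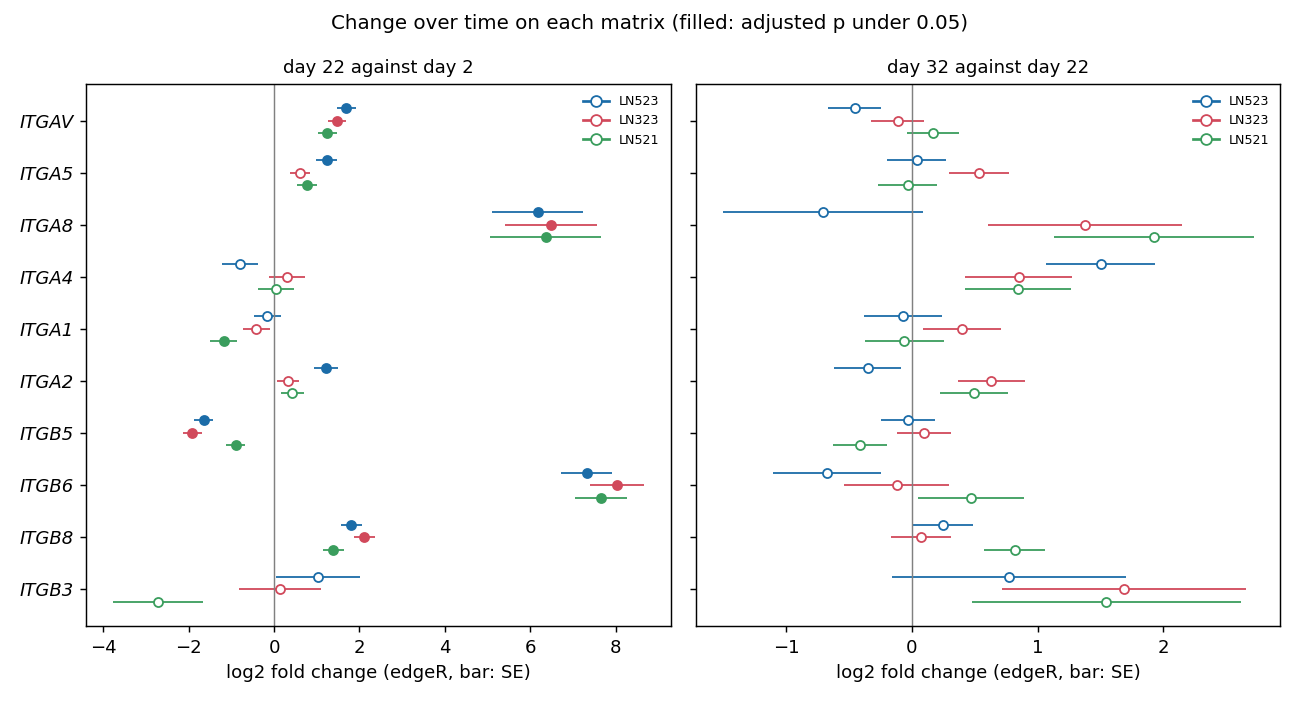
edgeR log2 fold change (horizontal axes, bars show 1 standard error) of each subunit from day 2 to day 22 (left) and from day 22 to day 32 (right), colored by matrix and filled where the adjusted p was under 0.05. ITGAV, ITGA8, ITGB6 and ITGB8 are filled to the right and ITGB5 to the left on all 3 matrices at day 22, and no point is filled in the right panel.

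ITGAV (ENSG00000138448, chr2:186590010-186680901, plus strand) codes for the alpha chain shared by the RGD receptors. On LN523 it measured 37.3, 46.5 and 49.9 TPM at day 2, 229.7, 133 and 173 TPM at day 22, and 121, 125 and 127 TPM at day 32. On LN323 the values were 40.2, 41.0 and 44.6 TPM, then 186, 122 and 136 TPM, then 153, 144 and 120.1 TPM. On LN521 they were 50.3, 54.2 and 37.8 TPM, then 97.7, 104 and 139 TPM, then 93.3, 173 and 114 TPM. All 18 later libraries were above all 9 libraries of day 2. The log2 change from day 2 to day 22 was 1.69 ± 0.22 (SE) on LN523 (adjusted p = 1.09e-08), 1.47 ± 0.21 on LN323 (adjusted p = 2.18e-07) and 1.25 ± 0.21 on LN521 (adjusted p = 7.57e-06).

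ITGB5 (ENSG00000082781, chr3:124761948-124901418, minus strand) codes for the vitronectin-binding partner of alpha V and moved the other way. At day 2 it measured 162, 195 and 139 TPM on LN523, 169, 177 and 224 TPM on LN323, and 172, 159 and 121 TPM on LN521. At day 22 it measured 50.7, 97.4 and 55.9 TPM on LN523, 59.5, 80.3 and 57.8 TPM on LN323, and 105, 80.0 and 58.0 TPM on LN521. At day 32 the values were 48.4, 86.2 and 54.1 TPM on LN523, 48.7, 111 and 61.6 TPM on LN323, and 53.0, 77.8 and 54.5 TPM on LN521. Every later library was below every library of day 2. By group mean ITGB5 was first of the members at day 2 and second later. ITGB5 fell by 1.64 ± 0.22 on LN523 (adjusted p = 3.83e-08), by 1.92 ± 0.22 on LN323 (adjusted p = 8.23e-10) and by 0.90 ± 0.22 on LN521 (adjusted p = 0.00129), all on the log2 scale.

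Within days 22 and 32, ITGB5 was highest in replicate 2 in 5 of the 6 groups, the exception being LN521 at day 22, where replicate 1 was highest. The 6 eye field markers were lowest in the replicate with the highest ITGB5 in 5 of these 6 groups, for example 767 TPM in LN523 day 22 replicate 2 against 1845 and 1903 TPM. LN521 day 22 replicate 1, with 105 TPM of ITGB5, also kept the highest pluripotency sum after day 2, at 423 TPM. Replicate numbers name the sequencing lane as well as the library. The part of these cell states in the ITGB5 level was not tested.

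ITGB6 (ENSG00000115221, chr2:160099667-160200313, minus strand) was near the floor at day 2, between 0.0271 and 0.345 TPM in the 9 libraries. At day 22 it measured 31.8, 9.36 and 39.9 TPM on LN523, 19.9, 9.64 and 24.6 TPM on LN323, and 14.5, 19.7 and 33.0 TPM on LN521. At day 32 it measured 5.18, 24.9 and 25.6 TPM on LN523, 16.1, 14.8 and 20.6 TPM on LN323, and 15.8, 46.9 and 28.9 TPM on LN521. The lowest later library was still above the highest of day 2. ITGB6 rose by a log2 change of 7.32 ± 0.59 on LN523 (adjusted p = 1.28e-14), 8.03 ± 0.63 on LN323 (adjusted p = 4.15e-15) and 7.65 ± 0.60 on LN521 (adjusted p = 5.92e-15). These fitted folds rest on 2 to 22 counts per library at day 2, so their size is loosely set. In the annotation used here, 16.7% of the exonic bases of ITGB6 are shared with a second gene model on the same strand (ENSG00000285155).

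The ITGB6 level varied within groups beside the surface ectoderm markers in no single direction. In LN523 day 32 replicate 1, with 5.18 TPM, the surface ectoderm sum was 356 TPM, the lowest of the 18 later libraries. In LN523 day 22 replicate 2, with 9.36 TPM, that sum was 1997 TPM, the highest of its group. The part of surface ectoderm in ITGB6 was not tested.

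ITGB8 (ENSG00000105855, chr7:20330702-20415754, plus strand) is the other TGF-beta releasing partner of alpha V. At day 2 it measured 2.5, 1.89 and 2.83 TPM on LN523, 1.36, 1.81 and 2.06 TPM on LN323, and 2.97, 2.96 and 2.41 TPM on LN521. At day 22 it measured 11.6, 9.69 and 10.1 TPM on LN523, 11.0, 10.1 and 7.81 TPM on LN323, and 7.48, 6.35 and 8.25 TPM on LN521. At day 32 it measured 14.3, 9.13 and 12.2 TPM on LN523, 13.6, 9.67 and 7.82 TPM on LN323, and 13.4, 12.8 and 12.5 TPM on LN521. No later library overlapped day 2. The log2 change to day 22 was 1.81 ± 0.25 on LN523 (adjusted p = 7.44e-08), 2.12 ± 0.25 on LN323 (adjusted p = 1.81e-09) and 1.38 ± 0.25 on LN521 (adjusted p = 1.70e-05).

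ITGB3 (ENSG00000259207, chr17:47253827-47313743, plus strand), the beta chain best known from platelets and endothelium, was scarcely detected, with 0 to 50 counts and at most 1.14 TPM in any library. It passed in no comparison between days or matrices in the edgeR fit. From day 2 to day 22 on LN521 its log2 fold change was -2.72 (edgeR adjusted p = 0.0634), and DESeq2 and edgeR after the filterByExpr filter called it lower. At day 32 its LN521 libraries, at 0.0492 to 0.191 TPM, lay below those of LN523 (0.293 to 0.541 TPM) and LN323 (0.229 to 1.14 TPM), with adjusted p = 0.863 and 0.623. In the annotation 33.2% of its exonic bases are shared with a second gene model on the same strand (ENSG00000259753).

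Among the 4 beta chains listed here, all of them partners of alpha V, the share held by ITGB5 at day 2 did not overlap with that of the later days. ITGB5 held 98.4% ± 0.518 (SD, n = 3) of their summed TPM at day 2 on LN523, 99.0% ± 0.137 on LN323 and 97.9% ± 0.188 on LN521. At day 22 it held 63.3% ± 17.5, 69.9% ± 8.95 and 72.1% ± 12.5 on the same matrices. ITGB6 accounted for 26.4% ± 16.1, 19.6% ± 9.01 and 21.1% ± 11.1 of the sum at day 22, and ITGB8 for 10.0% ± 2.02, 10.3% ± 1.75 and 6.74% ± 1.37. At day 32 the ITGB5 share was between 56.5% and 81.3% in the 9 libraries. ITGB1, a further partner of alpha V that is shared with many other alpha chains, is not in these shares and was more abundant than the 4 together: it held 57.5% ± 4.83, 55.4% ± 4.62 and 63.4% ± 2.95 of the sum of all 5 at day 2 on LN523, LN323 and LN521, and 78.6% ± 2.16, 78.7% ± 2.88 and 74.2% ± 2.72 at day 22. The ratio of ITGAV to all 5 beta chains was 0.113 ± 0.0146 at day 2 and 0.362 ± 0.0992 at day 22 on LN523. On LN323 it was 0.0980 ± 0.00487 and then 0.331 ± 0.0433, and LN521 had 0.112 ± 0.00125 and then 0.266 ± 0.0526. These shares are of transcripts and say nothing of protein or of assembled receptor.

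**Figure D3:**
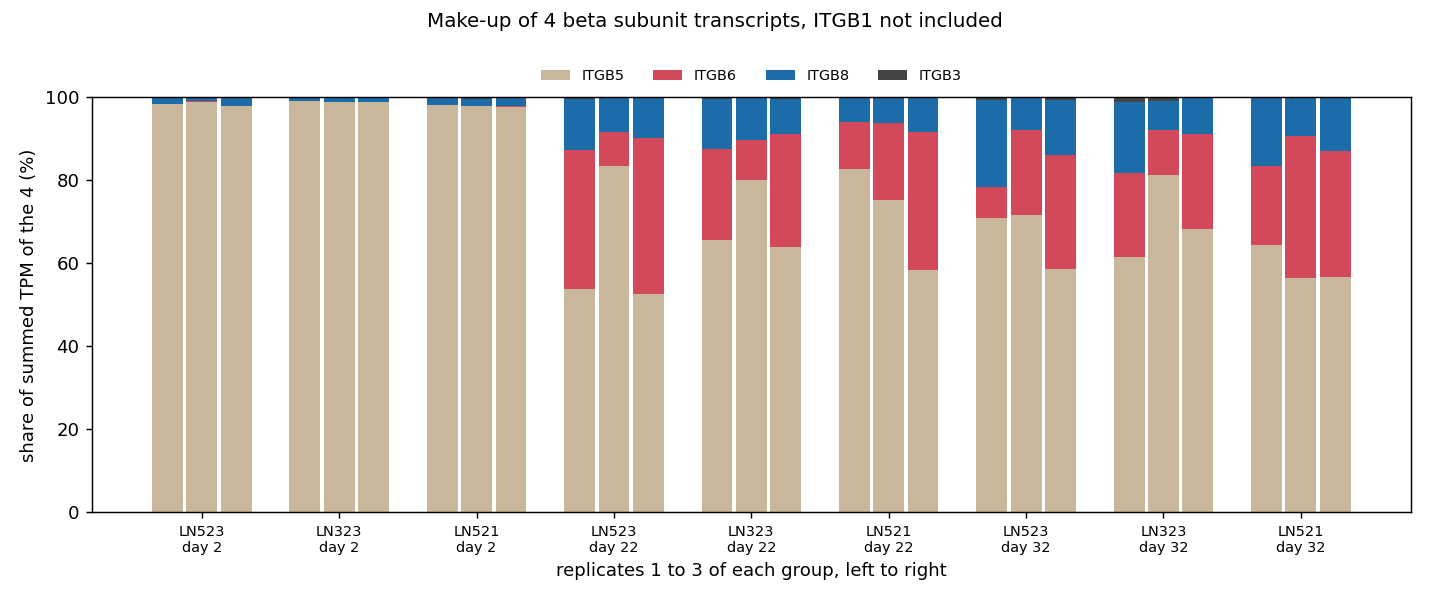
Share of the summed TPM of ITGB5, ITGB6, ITGB8 and ITGB3 without ITGB1 (vertical axis, percent) in each of the 27 libraries, 3 bars per group ordered by replicate. ITGB5 fills at least 97.8% of every bar at day 2 and between 52.6% and 83.5% at days 22 and 32, with ITGB6 and ITGB8 making up nearly all of the rest.

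Of the alpha chains that pair with beta 1, ITGA5 and ITGA8 rose by day 22 on at least some matrices, ITGA2 on LN523 and ITGA1 fell on LN521. ITGA5 (ENSG00000161638, chr12:54395261-54419266, minus strand) measured 12.1, 14.7 and 18.7 TPM at day 2 and 56.5, 35.1 and 41.4 TPM at day 22 on LN523. On LN323 it measured 19.7, 21.1 and 18.7 TPM and then 41.1, 30.8 and 43.1 TPM, and on LN521 25.5, 21.0 and 24.0 TPM and then 47.2, 33.0 and 42.2 TPM. Day 22 libraries were above day 2 libraries on each matrix. The log2 change was 1.23 ± 0.24 on LN523 (adjusted p = 5.75e-05) and 0.77 ± 0.24 on LN521 (adjusted p = 0.0136), and on LN323 the value of 0.61 ± 0.24 missed the threshold (adjusted p = 0.0568). Without LN521 day 2 replicate 1 or 2 the LN521 call was lost, with an adjusted p of up to 0.0808, and without LN323 day 22 replicate 2 the LN323 value passed, at 0.87 (adjusted p = 0.00856). At day 32 ITGA5 ranged from 30.6 to 77.3 TPM.

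ITGA2 (ENSG00000164171, chr5:52989340-53094779, plus strand), a collagen receptor chain of epithelia and platelets, measured 4.72, 5.71 and 8.69 TPM at day 2 and 18.1, 13.7 and 22.4 TPM at day 22 on LN523, a log2 change of 1.22 ± 0.27 (adjusted p = 0.000423). On LN323 it measured 7.11, 8.21 and 6.34 TPM and then 11.7, 7.94 and 15.1 TPM, with 0.33 (adjusted p = 0.508). On LN521 it measured 9.13, 10.8 and 8.67 TPM and then 13.4, 9.94 and 15.9 TPM, with 0.43 (adjusted p = 0.346). The 3 changes were not shown to differ: no member passed the test of unlike changes between matrices.

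ITGA1 (ENSG00000213949, chr5:52787916-52959209, plus strand), a collagen receptor chain of smooth muscle and fibroblasts, stayed low, between 1.21 and 6.20 TPM in all 27 libraries. On LN521 it measured 4.35, 5.46 and 2.42 TPM at day 2 and 1.76, 1.63 and 2.00 TPM at day 22, and it fell by 1.18 ± 0.32 on the log2 scale (adjusted p = 0.00386). The call was lost without LN521 day 2 replicate 2, at -0.82 (adjusted p = 0.105). The log2 change was -0.16 on LN523 (adjusted p = 0.883) and -0.42 on LN323 (adjusted p = 0.442). PELO lies within ITGA1, and 5.77% of the exonic bases of ITGA1 are shared with genes on the same strand.

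ITGA4 (ENSG00000115232, chr2:181457202-181538940, plus strand), a chain of leukocyte and neural crest receptors, measured between 1.16 and 9.69 TPM and passed no test in either time step. Its highest library was LN323 day 32 replicate 2, which also had the highest mesenchyme (1840 TPM) and surface ectoderm (2676 TPM) sums of all. That library had the highest neural crest sum of day 32 (92.9 TPM) and the lowest eye field sum of the later days (679.7 TPM). The part of these cell types in ITGA4 was not tested. CERKL on the opposite strand shares 26.4% of the exonic bases of ITGA4, and the strand setting of the counting was not given in the sources used here.

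ITGA8 (ENSG00000077943, chr10:15513954-15719922, minus strand), known from kidney and smooth muscle mesenchyme, was nearly absent at day 2, with 0 to 8 counts per library. At day 22 it measured 1.19, 17.6 and 0.699 TPM on LN523, 2.72, 6.35 and 2.07 TPM on LN323, and 2.01, 0.301 and 0.0898 TPM on LN521. At day 32 it measured 0.492, 4.62 and 2.31 TPM on LN523, 1.24, 23.2 and 6.66 TPM on LN323, and 5.89, 0.945 and 1.44 TPM on LN521. Libraries of a group differed widely, and replicate 2 was highest in all 4 later groups of LN523 and LN323. Summed over 3 libraries and divided by total counts, day 22 was 132 times day 2 on LN523 (1445 against 10 counts), 115 times on LN323 (812 against 8) and 90.2 times on LN521 (188 against 2). Day 2 counts were all even, so each may be a read pair counted as 2, and exact 95% intervals on the halved counts were 56.2 to 407 on LN523, 44.6 to 424 on LN323 and 15.8 to 3599 on LN521, for counting error only. Single libraries set these sizes: the ratio was 19.2 without LN523 day 22 replicate 2 and 22.2 without LN521 day 22 replicate 1. On LN323 it was 69.5 without day 22 replicate 2, and all 8 day 2 counts came from replicate 1, without which it was at least 191, taking 3 counts over the group as the floor. On LN521 both day 2 counts came from replicate 2, without which the ratio was at least 38.1 by the same floor. edgeR called all 3 (adjusted p = 8.47e-06, 3.34e-06 and 0.000138), whereas limma on log2(TPM + 1) called none of the 3, with values of 1.97, 2.09 and 0.69.

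Between days 22 and 32 no member passed on any matrix, where 0.381% of all genes passed on LN523, 0.0424% on LN323 and 0.268% on LN521. At an unadjusted p under 0.05 there were 2 members on each matrix: ITGAV and ITGA4 on LN523, ITGA2 and ITGA5 on LN323, and ITGA8 and ITGB8 on LN521. The share of all genes at an unadjusted p under 0.05 was not recorded in any comparison. Such counts, here and below, are therefore not shown to be particular to the members. limma on log2(TPM + 1) called 0 members and 28, 3 and 21 of all genes on LN523, LN323 and LN521. DESeq2 called 1 member, on LN521, where 209 of 44852 genes were called. It was ITGB8, with a log2 change of 0.84 (adjusted p = 0.0173). In edgeR that value was 0.82 (adjusted p = 0.195), although all 3 libraries of day 32 lay above those of day 22. Without LN521 day 22 replicate 1, edgeR called ITGA8 on LN521, at 4.64.

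Matrices were then compared at each day with edgeR on the 9 libraries of that day. limma called 0 of all genes in every comparison between matrices. Its 0 calls below are therefore not particular to the members. At day 2, ITGB5 was the one member that passed, in 1 of the 3 comparisons. Of 10 members 0 passed between LN523 and LN323, where 0.233% of genes passed, and 0 between LN523 and LN521, where 0.624% passed. At an unadjusted p under 0.05 there was 1 member, ITGA5, in each of these comparisons, with no share of all genes recorded at that cut. DESeq2 and limma called 0 members in them, where DESeq2 called 706 and 639 of 38650 genes. Between LN323 and LN521, where 2.5% of genes passed, ITGB5 was higher on LN323 by 0.60 ± 0.18 (adjusted p = 0.0352). The median over all genes tested in that comparison was -0.20. The ITGB5 libraries of these matrices overlapped, and the call was lost in DESeq2 (adjusted p = 0.175), in limma and in 5 of the 6 fits that left out 1 library, with values from 0.33 without LN323 day 2 replicate 3 to 0.77 without LN323 day 2 replicate 2.

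At day 22, 2 members, ITGA1 and ITGA8, were lower on LN521 than on either other matrix. Between LN523 and LN521 they were 2 of 10 members, where 0.572% of genes passed, and likewise 2 of 10 between LN323 and LN521, where 0.616% passed. ITGA1 measured 3.68, 4.39 and 3.81 TPM on LN523, 5.32, 2.94 and 2.70 TPM on LN323, and 1.76, 1.63 and 2.00 TPM on LN521, so the LN521 libraries lay below all 6 others. The log2 difference from LN521 was 1.13 ± 0.26 for LN523 (adjusted p = 0.0126) and 1.00 ± 0.26 for LN323 (adjusted p = 0.0420). For ITGA8 it was 2.34 ± 0.57 (adjusted p = 0.0196) and 2.47 ± 0.52 (adjusted p = 0.00295), with TPM that overlapped with LN521 for LN523 but not for LN323 (lowest LN323 library 2.07 TPM, highest LN521 library 2.01 TPM). Between LN523 and LN323, 0 of 10 members and 0.013% of genes passed. There were 3 members (ITGA2, ITGA4 and ITGB6) at an unadjusted p under 0.05, with no share of all genes recorded at that cut. DESeq2 and limma called 0 members, where DESeq2 called 547 of 38609 genes and limma 0.

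These 4 calls depended on the fit. Without lane as a replicate block, edgeR called 0 of them, with a log2 difference of 1.12 (adjusted p = 0.649) for ITGA1 between LN523 and LN521. DESeq2 called ITGA1 in both comparisons and ITGA8 in neither, and it called 486 and 626 of 38609 genes. limma called 0 of all genes in both, so its lack of calls is not particular to ITGA1 and ITGA8. When 1 library was left out, ITGA1 kept its call for LN523 against LN521 in 4 of 6 fits and lost it without LN523 day 22 replicate 2 (0.97) or 3 (1.09). For LN323 against LN521 it kept the call in 1 of 6 fits, the one without LN521 day 22 replicate 3, with values from 0.64 without LN323 day 22 replicate 1 to 1.20 without LN323 day 22 replicate 3. ITGA8 kept its call for LN523 in 2 of 6 fits and lost it without replicate 2 or 3 of either matrix, down to 0.90 without LN523 day 22 replicate 2. For LN323 it kept the call in 1 of 6 fits, the one without LN521 day 22 replicate 1, where the difference was 5.02. Other members entered in such fits: ITGAV was called higher on LN523 than LN521 without LN523 day 22 replicate 2 (0.72), LN521 day 22 replicate 2 (0.74) or LN521 day 22 replicate 3 (0.75), against 0.60 ± 0.17 with all libraries (adjusted p = 0.0852). Without LN523 day 22 replicate 2, ITGA8 (-1.91) and ITGB6 (0.84) were called between LN523 and LN323. Without LN521 day 22 replicate 1, ITGB6 was called between LN323 and LN521 (-0.81). The share of all genes that passed in these fits was not recorded, so such calls are not shown to be particular to the members.

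Mesenchyme marker sums were lower on LN521 at day 22, as were the group means of these genes. Their sum at day 22 was 166 to 331 TPM on LN521, 397 to 644 TPM on LN523 and 414 to 543 TPM on LN323. At day 32 it was 346 to 439 TPM on LN521, 481 to 788 TPM on LN523 and 691 to 1840 TPM on LN323, so LN521 lay below the others on both days. All 10 mesenchyme markers had a mean of at least 1 TPM in each of the 6 later groups. The highest ITGA8 value of the series, 23.2 TPM, came from the library with the mesenchyme sum of 1840 TPM. Within groups there was no single direction. In LN523 day 22 replicate 2, ITGA8 (17.6 TPM) and the sum (644 TPM) were both highest of the group. In LN323 day 22 replicate 2, ITGA8 was highest (6.35 TPM) at the lowest sum (414 TPM). In LN523 day 32 replicate 2, ITGA1 was lowest (2.35 TPM) at the highest sum (788 TPM). Other marker sums also varied beside ITGA8. In replicate 2 of the later LN523 and LN323 groups, where ITGA8 was highest, the surface ectoderm and neural crest sums were also highest. On LN521, ITGA8 was highest in replicate 1 on both later days. There the neural crest sum was highest at day 22 (96.3 TPM) but not at day 32, and the surface ectoderm sum on neither day. The part of any of these cell types in ITGA1 and ITGA8 was not tested.

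**Figure D4:**
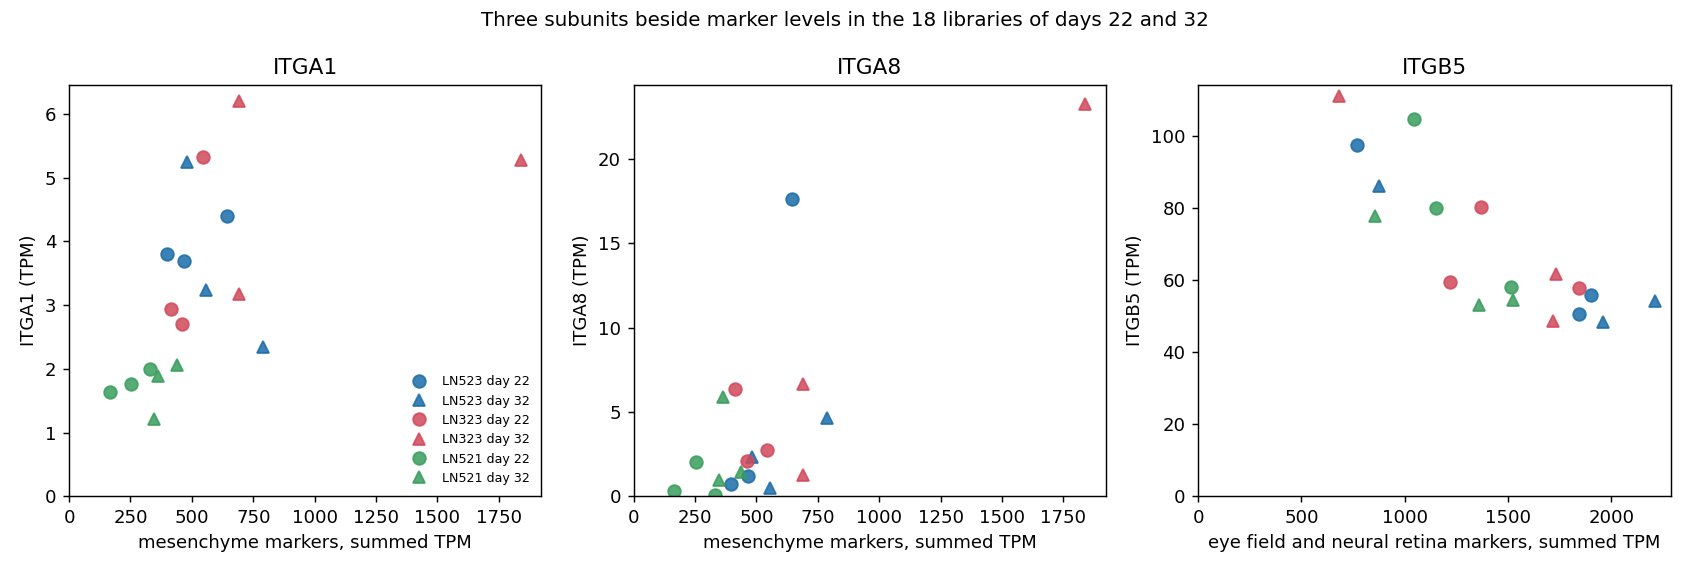
ITGA1 and ITGA8 TPM against the summed TPM of 10 mesenchyme markers, and ITGB5 TPM against that of 6 eye field and neural retina markers, in the 18 libraries of days 22 (circles) and 32 (triangles), colored by matrix. The 6 LN521 libraries lie at the lower left for ITGA1, and the 7 highest ITGB5 values, from 77.8 TPM upward, lie at eye field sums of at most 1369.7 TPM.

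At day 32, 0 members passed in any of the 3 comparisons, where the shares of all genes were 0% between LN523 and LN323, 0.0609% for LN523 against LN521 and 0.117% for LN323 against LN521. Members at an unadjusted p under 0.05 numbered 1 (ITGA8), 3 (ITGA1, ITGB3 and ITGB6) and 2 (ITGA1 and ITGB3). No share of all genes was recorded at that cut. limma called 0 members and 0 of all genes. DESeq2 called 1 member, ITGA1 between LN323 and LN521, where it called 794 of 39377 genes. Between LN523 and each other matrix it called 823 genes. ITGA1 measured 3.23, 2.35 and 5.25 TPM on LN523, 6.20, 5.27 and 3.17 TPM on LN323, and 1.89, 1.21 and 2.06 TPM on LN521. LN521 again lay below all 6 others, with a log2 difference of 1.54 ± 0.32 for LN323 (adjusted p = 0.0557) and 1.07 ± 0.32 for LN523 (adjusted p = 0.298).

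The count of 0 at day 32 changed when single libraries were left out. The share of all genes that passed in such fits was not recorded, so the calls below cannot be set beside it. Without LN521 day 32 replicate 1, edgeR called 9 differences from LN521: ITGA1, ITGA5, ITGA8 and ITGB6 against both other matrices and ITGB8 against LN323. ITGA1 was then higher by 1.08 on LN523 (adjusted p = 8.48e-05) and by 1.55 on LN323 (adjusted p = 3.81e-09), and ITGB6 was lower by 0.87 on LN523 on the log2 scale. That library had the highest ITGA5 and ITGA8 and the lowest ITGAV and ITGB6 of its group, and its 8 pigment epithelium markers summed to 678 TPM against 2286 and 1716 TPM. Without LN323 day 32 replicate 1, ITGA8 was called between LN523 and LN323 (-2.47) and ITGB6 between LN323 and LN521 (-1.28). Without LN323 day 32 replicate 3, ITGA1 was called between LN323 and LN521 (1.98).

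**Figure D5:**
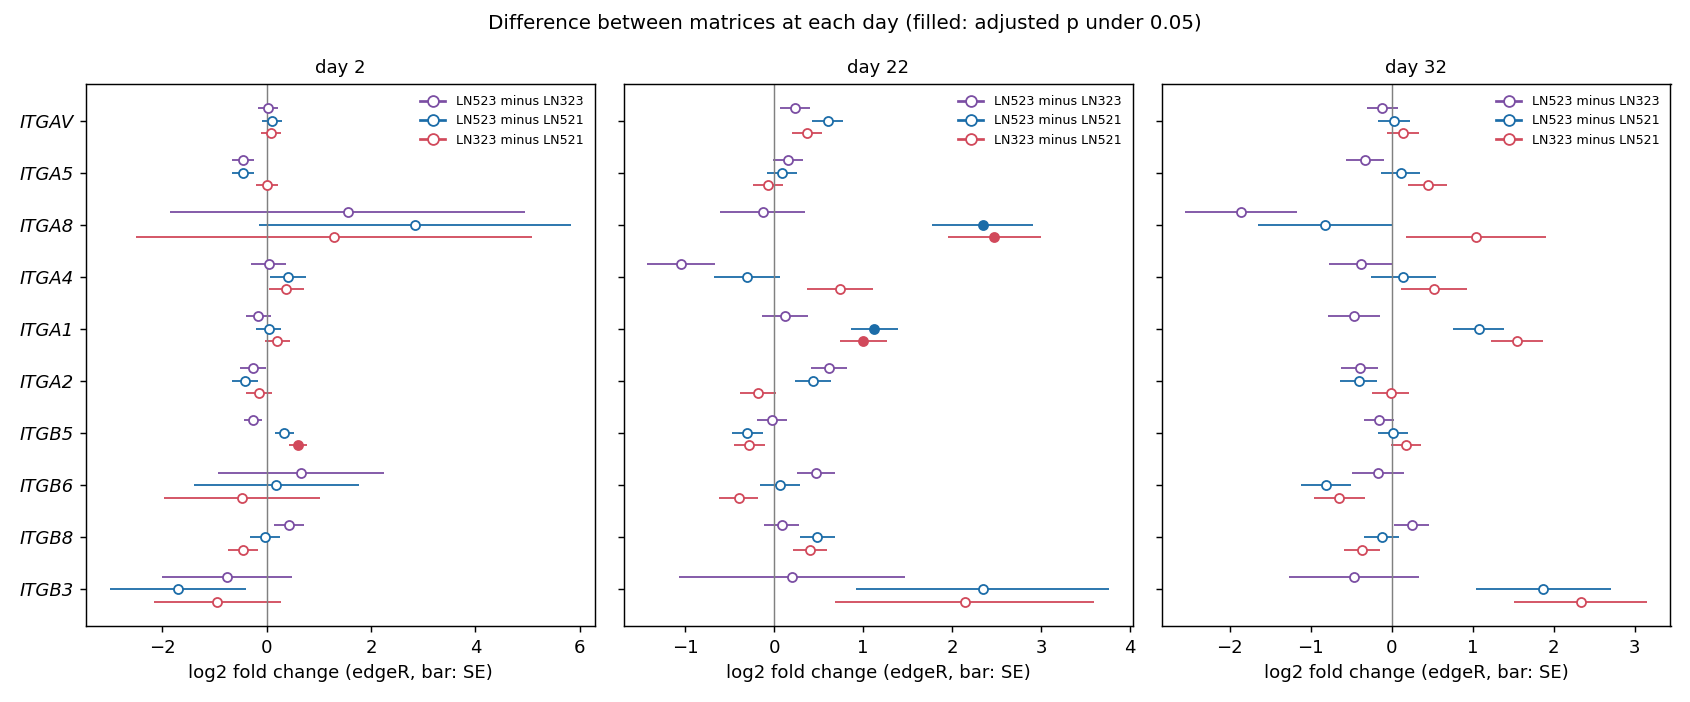
edgeR log2 fold change between matrices (horizontal axes, bars show 1 standard error) for each subunit at days 2, 22 and 32, colored by the pair compared and filled where the adjusted p was under 0.05. Filled points are ITGB5 at day 2 and ITGA1 and ITGA8 against LN521 at day 22.

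Whether a member changed over time to a different extent on 2 matrices was tested by interaction terms in the fit of 27 libraries. None of the 10 members passed in any of the 6 tests. From day 2 to day 22 the shares of all genes that passed were 0%, 0.00446% and 0.0201% for LN523 against LN323, LN523 against LN521 and LN323 against LN521, and from day 22 to day 32 they were 0%, 0% and 0%. The lowest adjusted p was 0.361, for ITGB5 on LN323 against LN521 (difference in log2 change -1.02 ± 0.31). Without LN323 day 2 replicate 2 that difference was -1.24 (adjusted p = 0.0492). Members at an unadjusted p under 0.05 numbered 1, 4 and 3 in the first step and 1, 3 and 1 in the second. No share of all genes was recorded at that cut. DESeq2 and limma called 0 members. Over all genes DESeq2 called 10, 10 and 13 in the first step and 9, 15 and 9 in the second. limma on log2(TPM + 1) called 1, 27 and 18 in the first step and 0 in the second.

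The partner chain, the ligands and the proteins below the receptors were followed in lists of related genes. Beside the list counts below, 11.5% of all genes rose and 10.2% fell from day 2 to day 22 on LN523. The shares were 11.8% and 10.9% on LN323, and 10.8% and 8.09% on LN521. ITGB1, the partner of all 6 alpha chains, had group means of 227, 237 and 268 TPM at day 2 on LN523, LN323 and LN521 and 388, 349.9 and 318 TPM at day 22, and its log2 change of 0.46, 0.21 and 0.24 missed the threshold on all 3 (adjusted p = 0.0566, 0.508 and 0.463). FN1, coding for fibronectin, rose from group means of 54.1, 53.3 and 78.9 TPM to 867, 564 and 462 TPM, a log2 change of 3.68 ± 0.35 on LN523 (adjusted p = 1.50e-12), 3.02 ± 0.34 on LN323 (adjusted p = 2.53e-10) and 2.52 ± 0.33 on LN521 (adjusted p = 2.15e-08). VTN, coding for vitronectin, rose from 0.485, 0.482 and 1.24 TPM to 12.4, 15.8 and 17.6 TPM on the same matrices.

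Of 19 matrix ligand genes, 13 rose and 2 fell by day 22 on LN523, and 12 rose and 2 fell on each of LN323 and LN521, with a median log2 change of 2.30, 1.65 and 2.03. COL3A1, a fibrillar collagen chain, had group means of 1.71, 1.07 and 1.57 TPM at day 2 on LN523, LN323 and LN521, and rose to 931, 914 and 376 TPM. FBN1, which codes for fibrillin, rose from 4.44 to 92.5 TPM on LN523. The 2 that fell on each matrix, MFGE8 and EDIL3, code for RGD proteins known as ligands of alpha V receptors and were named after their values were seen, with MFGE8 at -2.80 on LN523 (adjusted p = 4.34e-12).

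Of 9 genes for TGF-beta and the proteins that hold it latent, 7 rose and 1 fell on every matrix. TGFB2 rose from group means of 0.646, 0.913 and 1.43 TPM to 102, 92.9 and 63.4 TPM. LTBP2, a latent TGF-beta binding protein, rose by 3.43, 2.91 and 2.57 on the log2 scale. NRROS, which tethers latent TGF-beta on myeloid cells, was the 1 that fell, to 0.675, 0.388 and 0.865 TPM.

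Of 21 intracellular adhesion genes, 8 rose and 4 fell on LN523, 6 and 4 on LN323, and 7 and 3 on LN521, with medians of 0.24, 0.16 and 0.39. DAB2, an adaptor of integrin uptake, rose by 3.05, 2.74 and 3.74, and PARVA, a partner of integrin-linked kinase, by 2.14, 2.17 and 2.40. Of 16 other integrin subunits, 3 rose and 1 fell on LN523, and 1 rose and 2 fell on each of LN323 and LN521. ITGB4 rose by 2.62, 2.58 and 2.54 and ITGA6 fell by 1.66, 1.54 and 1.18, both of them chains of laminin receptors.

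The protein-coding genes whose log2 CPM (counts per 1000000) ran most like each member over the 27 libraries were ENDOD1 for ITGB6 (Pearson r = 0.979), FBXO32 for ITGB8 (0.968), ELK3 for ITGAV (0.967), CARMIL1 for ITGB5 (0.964), UBA7 for ITGA8 (0.944), SULF1 for ITGA5 (0.912), PTGS2 for ITGA2 (0.850), LHFPL2 for ITGA1 (0.771) and COL23A1 for ITGA4 (0.769), each the highest of 14990 candidates. Libraries of day 2 stood apart from the later ones for most of these subunits, and r does not separate that step from other variation. The libraries share scaling and lanes, and r is given as a description.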

How the data were processed

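Total RNA of H1 cultures was sequenced as stranded, rRNA-depleted libraries in read pairs of 150 bases. The authors trimmed reads with cutadapt, aligned them with STAR 2.5.2b to hg38 with Ensembl release 79 genes and counted them with featureCounts 1.5.1, per the submitters' processing notes and the study's methods. They removed ribosomal RNA and mitochondrial genes. The deposited values are raw counts per gene, rounded by the authors, and TPM derived by the authors from the same reads. The deposited tables hold 44852 genes, of which 43052 matched GENCODE 44 by identifier. Of the nonzero counts, 68.8% were even, so a pair often counted as 2.

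Counts were tested with edgeR 4.0.16 (quasi-likelihood test, TMM factors, genes with more than 1 count in all, R 4.3.3), with lane and group as terms and Benjamini-Hochberg adjustment over all genes tested. Matrix comparisons used the 9 libraries of a day, and time and interaction terms all 27. DESeq2 1.42.0 and limma 3.58.1 on log2(TPM + 1) and log2(TPM + 0.1) were alternatives. The edgeR fit was also run on counts simulated from the means of day 32. Those counts held no lane effect, so that run does not bear on the lane term. Replicate numbers in the sample titles name 1 of 3 sequencing lanes, which the study's methods also fit. Deviations of same-lane libraries from their group means over 16366 genes correlated at 0.402 to 0.772 between LN523 and LN323 at days 22 and 32, but at -0.508 to 0.0683 at day 2, and with mixed signs against LN521. All 10 members are named. From each related list up to 4 genes were named in a comparison, those with the largest log2 change among called genes with at least 1 CPM and the same sign in all 3 lanes. Members and lists were chosen with earlier results of these data known. Promoter windows are from RefSeq, GRCh38.p14, and Ensembl gene positions from GENCODE 44.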

Additional observations from a re-analysis of the deposited data

How the results depend on the processing

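Of the 19 member calls from day 2 to day 22, 19 were shared with RLE size factors, the filterByExpr filter (20 calls), no replicate block and only the libraries of the matrix (20 calls). DESeq2 shared 18 and lost ITGA5 on LN521, limma on log2(TPM + 0.1) shared 18 and lost ITGA8 on LN521, and limma on log2(TPM + 1) shared 16 of its 17 calls and lost ITGA8 on all 3 matrices. ITGA5 on LN323 or ITGB3 on LN521 entered in 5 of these fits. With 1 library left out there were 17 to 20 calls. For fits that left out 1 library, the share of all genes that passed was not recorded in any comparison. The calls between matrices did not hold across fits. The filterByExpr filter and both limma fits called 0 of all genes in every comparison between matrices. Their 0 member calls are therefore not particular to the members. At day 2 the 1 call became 0 under the filterByExpr filter, both limma fits, DESeq2, a fit of only the 2 groups and a fit of all 27 libraries. It became 0 to 1 with 1 library left out. Over all genes tested between LN323 and LN521, DESeq2 called 897, only the 2 groups 875 and all 27 libraries 44. At day 22 the 4 calls became 0 with no replicate block, under the filterByExpr filter, both limma fits and all 27 libraries, 1 with only the 2 groups and 2 in DESeq2, and 2 to 5 with 1 library left out. At day 32 the 0 calls became 1 in DESeq2, with only the 2 groups and with all 27 libraries, and 0 to 9 with 1 library left out. Over all genes between LN523 and LN323, LN523 and LN521, and LN323 and LN521, DESeq2 called 823, 823 and 794. Only the 2 groups gave 1035, 82 and 26, and all 27 libraries 0, 6 and 39. From day 22 to day 32 the 0 calls became 1 in DESeq2 and with only the libraries of the matrix. They became 0 to 1 with 1 library left out. Over all genes on LN523, LN323 and LN521, DESeq2 called 158, 9 and 209, and only the libraries of the matrix 392, 277 and 453. The 0 calls for unlike changes from day 2 to day 22 became 0 to 1 with 1 library left out.

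Dropping the replicate block left the 19 calls of day 22 against day 2 at 19 and changed no call other than the 4 at day 22. ITGA1 from day 2 to day 22 on LN523 changed sign in limma, to 0.13 and 0.17, and ran from -0.32 to 0.073 with 1 library left out. ITGA8 at day 32 was 0.054 between LN523 and LN521 with only the 2 groups, and ran from -2.11 to 1.45 with 1 library left out, and from -0.39 to 3.23 between LN323 and LN521. TMM factors differed between day 22 and day 2 by 0.17 on LN523, 0.21 on LN323 and -0.00062 on LN521 on the log2 scale, which TPM does not take up. The part of this difference in the sign change of ITGA1, and the cause of the other shifts, were not tested. With 3 libraries per group, and counts of 0 to 8 for ITGA8, 2 to 22 for ITGB6 at day 2 and 0 to 50 for ITGB3, fold sizes of these genes are loosely set.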
